A study of Mus musculus with 27 samples.

Results

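The subunits of the mitochondrial respiratory chain and of its ATP synthase were followed through cardiotoxin injury and repair of mouse muscle. Members were taken by gene symbol (names beginning Nduf, Sdh, Uqcr, Cyc1, Cox4i to Cox8, Atp5, and the mt-Nd, mt-Co, mt-Atp and mt-Cytb genes). They also had to hold a TPM (a level scaled by transcript length and by the library's total) of at least 1 in at least 3 libraries of each of the 2 deposited tables, and names marked as pseudogenes (-ps) were left out. Of 105 entries with such names, 98 passed and 7 did not, out of 55852 entries in the larger table. The nuclear genome encoded 85 of the 98 and the mitochondrial genome 13. Complex I had 37 nuclear and 7 mitochondrial members, complex II 4 nuclear, complex III 9 and 1, complex IV 18 and 3, and complex V (the ATP synthase) 17 and 2. One nuclear member, Ndufb4c, is annotated as a processed pseudogene.

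Complexes I to IV pass electrons from NADH and succinate to oxygen and, except for complex II, pump protons across the inner membrane. Complex V lets the protons back through a rotor to make ATP. Each complex other than II is built from products of both genomes, and skeletal muscle and heart use their own versions of several complex IV subunits beside the widely expressed ones.

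RNA-seq was made from 27 muscle libraries of male mice. WT mice (C57BL/6J in the study's methods) and littermates labelled KO for Gsdme, the gene of a pore-forming gasdermin, received cardiotoxin, a venom peptide that lyses muscle fibres, in the gastrocnemius. Muscle was taken on day 1, 4, 7 or 14 (written D1 to D14), and each genotype had 3 libraries at each time. Another 3 libraries came from WT muscle that was not injured, which the study describes as the contralateral leg. The series' own design text names the thigh as the injected site and calls the control unloaded, and its sample labels say only muscle. The genotype field of the KO samples reads knockdown, whereas the study describes a KO allele carried in all tissues. The labels tie no library to a mouse, so the spread between libraries of a group may be partly technical. The mice's age is not given in the sources used here.

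The control libraries stood in a table with the 3 WT D1 libraries and the 24 injured libraries in another, in which the same WT D1 libraries appeared again. In each WT D1 library, 96 of the 98 members differed by at most 10% between both tables. D1 was compared with control only within the first table, and in the study the contralateral comparison and the time course were sequenced as 2 batches, so that no test was made of control against later days. Since the same WT D1 libraries stand in both tables, it is not clear in which batch they were sequenced. A batch difference between control and D1, if there was one, cannot be told apart from injury. Depth could not be known from TPM.

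Gsdme itself had 1.8 to 4.85 TPM in the WT and 0.95 to 2.17 TPM in the KO libraries on D1, D4 and D7. On D14 the genotypes overlapped, at 1.46 to 2.26 TPM in WT and 1.27 to 1.96 TPM in KO. Gsdme transcript therefore remained in the libraries labelled KO. All 12 markers of mature fibres had a group mean of at least 1 TPM in each group.

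Several libraries stood apart from their group in marker genes of other cells. KO D4 replicate 2 had a summed TPM of 463 over 8 leukocyte markers, against 3226 and 3860 in the other libraries of its group, and 33.4 over 6 markers of regenerating fibres, against 870 and 948. KO D7 replicate 2 had 497 over the leukocyte markers, against 1227 and 1277. WT D1 replicate 3 had 938, against 2725 and 4331. WT D4 replicate 1 had the highest leukocyte sum of all, 5839, and the lowest sum over mature fibre markers, 44506. Values without these libraries are given beside several of the results. In whole muscle, fewer cells of a type and less RNA per cell cannot be told apart.

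The 85 nuclear members together held 5.14% ± 0.22 of all TPM (SD, n = 3) in control muscle and 3.67% ± 0.49 on WT D1 in the same table, and the groups did not overlap. In the injured table the WT share went from 3.68% ± 0.50 (D1) over 4.40% ± 0.81 (D4) and 5.70% ± 0.23 (D7) to 5.44% ± 0.43 (D14). KO libraries had 3.68% ± 0.66, 5.38% ± 1.23, 5.28% ± 0.20 and 5.49% ± 0.41 at these times. The lowest nuclear share of any library was 2.98%, in a KO D1 library, and the highest 6.80%, in KO D4 replicate 2. The other KO D4 libraries held 4.67% and 4.69%.

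The 13 mitochondrially encoded members held more TPM than the nuclear ones in every group mean. Their share was 13.2% ± 1.08 in control muscle. The WT means were 8.19% ± 2.54 (D1), 5.34% ± 1.59 (D4), 10.4% ± 1.03 (D7) and 16.2% ± 1.48 (D14), so that its lowest mean fell on D4, when the nuclear share already stood above its D1 mean. The KO means were 10.2% ± 1.12, 8.19% ± 2.90, 9.62% ± 1.78 and 15.7% ± 1.54. The ratio of mitochondrial to nuclear TPM was 2.59 in control and then, in time order, 2.19, 1.20, 1.82 and 2.99 in WT. It was 2.80, 1.50, 1.82 and 2.88 in KO. Since TPM adds up to the same total in each library, a rise in mitochondrial transcripts lowers every nuclear value. As a share of the TPM outside all genes of the mitochondrial genome, the nuclear members held 5.93% in control and 4.03%, 4.66%, 6.38% and 6.52% in WT over the 4 days. Nuclear copies of mitochondrial genes, described further on, stayed in that total. They held a mean of 9.23% of all TPM in control and 4.02% to 12.6% in the WT groups.

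Mean levels of nuclear members over the injured libraries spanned a wide range within each complex. In complex I they ran from 88.9 TPM for Ndufb4 to 805 TPM for Ndufb9, in complex II from 177 TPM for Sdhc to 421 TPM for Sdhb, and in complex III from 264 TPM for the core subunit Uqcrc2 to 1370.2 TPM for the small subunit Uqcr10. Atp5b of complex V had the highest mean of all nuclear members, 2684 TPM.

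**Figure D1:**
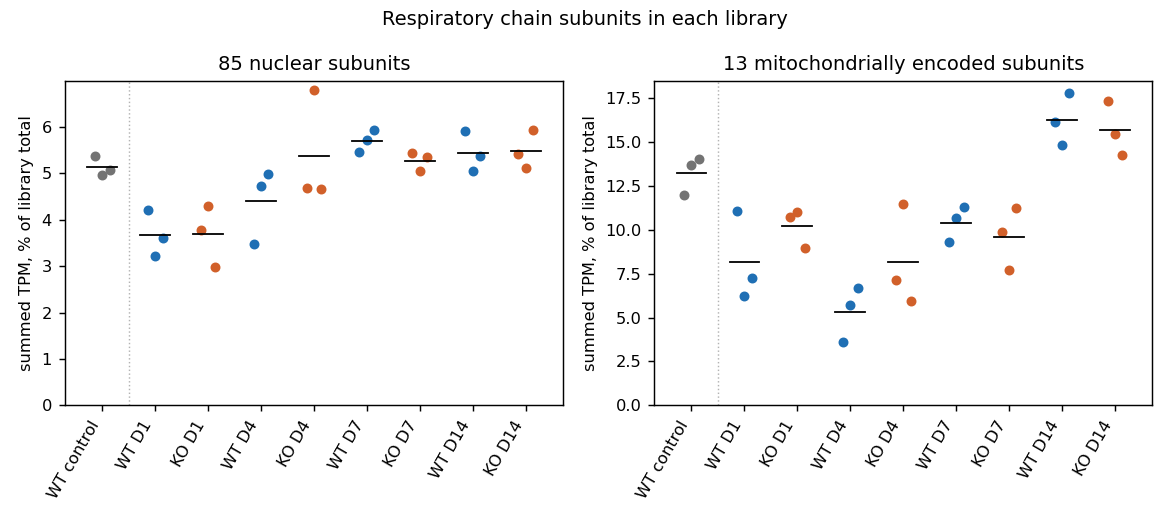
Summed TPM of the 85 nuclear (left) and 13 mitochondrially encoded subunits (right) as a percentage of each library's total TPM. Points are libraries (grey control, blue WT, orange KO), bars are group means of 3, and the dotted line parts the control table from the injured table. The mitochondrial share was lowest on WT D4 (5.34%) and the nuclear share on D1 (3.68% in both genotypes).

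On D1 after injury, subunits of all 5 complexes were lower than in control muscle, while most of the transcriptome was higher. The test throughout was limma on log2(TPM + 1) over all genes passing the TPM filter, with Benjamini-Hochberg adjustment over all of them and calls at an adjusted p under 0.05. At D1, 51 of the 98 members were lower and 3 higher. Of all 13041 genes tested, 5.64% were lower and 55.4% higher, and the median over all genes was +0.66 on the log2 scale. The median was −0.49 for nuclear members (−1.15 relative to all genes) and −0.72 for mitochondrial members (−1.38 relative to all genes). By complex, 21 of 37 nuclear complex I members fell, all 4 of complex II, 5 of 9 of complex III, 4 of 18 of complex IV and 12 of 17 of complex V.

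Ndufs1, the large iron-sulfur subunit at the electron entry of complex I, had 190, 139 and 194 TPM in control and 101, 68.8 and 98.7 TPM on WT D1. The groups did not overlap, and the log2 difference was −0.96 ± 0.21 (SE, adjusted p = 0.00622 by limma). All 4 subunits of succinate dehydrogenase, which feeds electrons from the citrate cycle, had called log2 differences of −0.72 to −0.47. Sdhb, its iron-sulfur subunit, had 459, 406 and 429 TPM in control and 346, 226 and 227 TPM on WT D1, and its log2 difference was −0.72 (adjusted p = 0.0162). In complex III, Uqcrh, the hinge subunit beside cytochrome c1, had 1121, 1135 and 1022 TPM in control and 637, 517 and 554 TPM on D1. Its difference was −0.94 ± 0.17 (adjusted p = 0.00346), the lowest adjusted p of any member. In complex V, Atp5pb, a subunit of the peripheral stalk, fell from 490, 457 and 476 TPM to 309, 260 and 283 TPM (log2 difference −0.74, adjusted p = 0.00523). Uqcrh and Atp5pb, and Ndufc2 and Ppargc1a further on, were chosen after their values were seen.

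The 3 members that were higher on D1 were Cox6a1 and Cox8a, widely expressed subunits of complex IV, and Atp5g2, a gene for the c subunit of the ATP synthase rotor. Cox6a1 had 105, 91.1 and 104 TPM in control and 337, 530 and 197 TPM on WT D1 (log2 difference 1.71 ± 0.32, adjusted p = 0.00369). Cox8a had 107, 99.0 and 99.9 TPM in control and 269, 408 and 178 TPM on D1 (1.40 ± 0.28, adjusted p = 0.00437; 0.61 with adjusted p = 0.0527 after median-of-ratios scaling). In both genes the lowest D1 value was that of WT D1 replicate 3, whose leukocyte sum was lowest. All 8 leukocyte markers were also higher on D1 than in control, with a median log2 difference of 3.75 and summed TPM of 156 to 205 in control and 938 to 4335 on D1. Of the mature fibre markers 5 of 12 were lower, and their summed TPM was 180170 to 194420 in control and 88776 to 181420 on D1. The part of these markers in the differences was not tested.

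The count of 54 called members fell to 20 without control replicate 1, to 21 without control replicate 3, and to 35 without control replicate 2 or without WT D1 replicate 2. It was 58 without WT D1 replicate 3, and 28 when genes of every level entered the test. It was 91 after median-of-ratios scaling and 83 without the 50 most abundant genes. If the control muscle came from the opposite legs of the injured mice, the libraries would be paired by mouse, which the labels do not state. With the replicate number as a block 45 members passed. For these counts, and for those under other settings further on, the share of all genes called is not given.

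**Figure D2:**
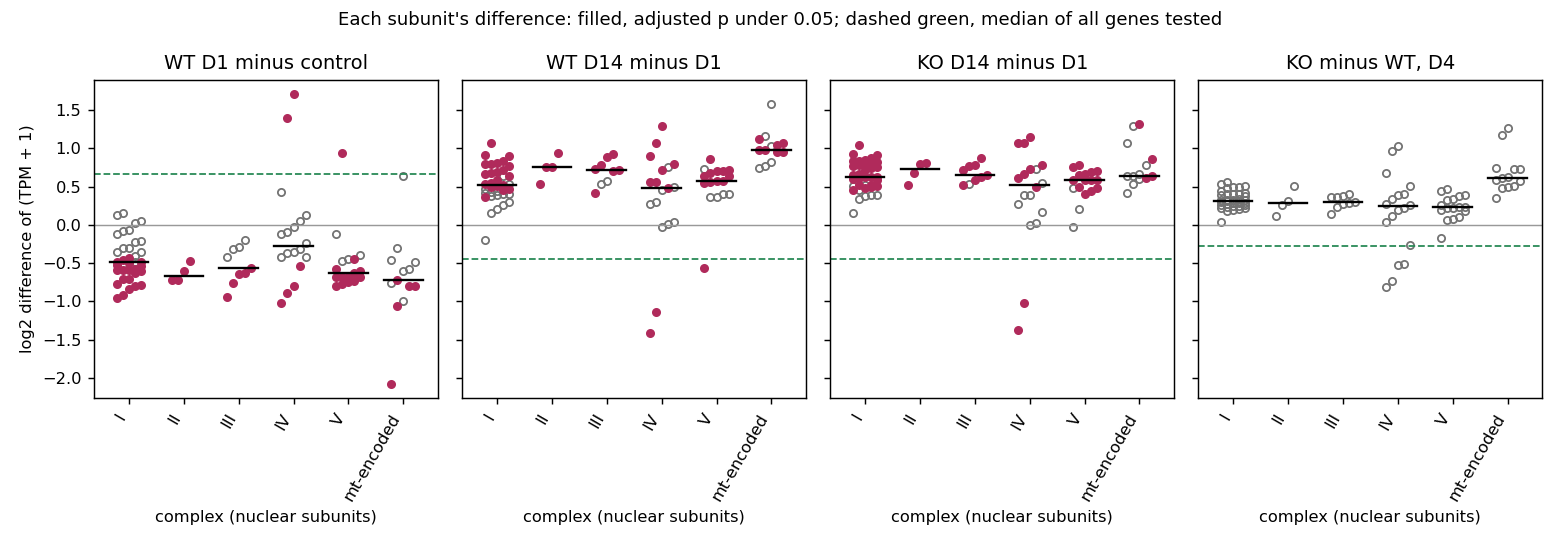
Log2 difference of TPM + 1 for each nuclear subunit by complex and for the mitochondrially encoded (mt) subunits, in 4 comparisons; each point is a gene, filled where limma's adjusted p was under 0.05, black bars are medians of the group and the dashed green line is the median of all genes tested. On WT D1 the complex medians lay between −0.66 and −0.28 while all genes lay at +0.66; in KO minus WT on D4 no point is filled.

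Between D1 and D4 in WT, a minority of the subunits passed the test, and the difference between nuclear and mitochondrially encoded members was not tested. In WT, 15 members were higher, all of them nuclear, and 2 lower, against 14.6% and 5.27% of all 15718 genes, so that the higher share was close to the background. The nuclear median was +0.24, near the +0.18 of all genes, and turned to −0.03 after median-of-ratios scaling. The 13 mitochondrial members all had negative differences, with a median of −0.67. The 2 that passed the test were mt-Nd1, a membrane subunit of complex I (8119, 5936 and 6427 TPM on D1, and 2883, 4664 and 4723 TPM on D4; log2 difference −0.76, adjusted p = 0.0212), and mt-Atp6, the proton channel subunit of the ATP synthase (−1.95, adjusted p = 0.00866).

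The nuclear members that rose in WT between D1 and D4 included 7 of complex IV. Cox7a2l, a supercomplex assembly factor that resembles a complex IV subunit, rose from 129, 126 and 119 TPM to 281, 293 and 233 TPM (1.10 ± 0.17, adjusted p = 0.000288). Sdhd, a membrane anchor of complex II, rose from 179, 158 and 148 TPM to 236, 318 and 305 TPM (0.81, adjusted p = 0.000517), but its difference was 0.54 (adjusted p = 0.0959) after median-of-ratios scaling. Atp5g3, the c subunit gene with the highest D4 level, rose from 923, 671 and 641 TPM to 1162, 1534 and 1522 TPM (0.92, adjusted p = 0.00118). Cox6b2, better known from testis, had 1.42 to 3.01 TPM on D1 and 3.4 to 9.19 TPM on D4 (1.13, adjusted p = 0.0167), and its mean of 3.18 TPM over the injured libraries was the lowest of complex IV. With median-of-ratios scaling 3 members rose and 2 fell, and with quantile normalization 6 rose and 5 fell. Called members numbered 9 without WT D1 replicate 3, and 1 when the fit held only the 6 libraries compared.

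In KO muscle the same step gave 45 higher members and 0 lower, against 7.18% and 12.2% of all genes. The nuclear median was 0.53 while all genes lay at −0.15. Of the members that rose, 22 were in complex I, 2 in complex II, 5 in complex III, 3 in complex IV and 13 in complex V. Ndufc2, a small complex I subunit, had 87.2, 89.7 and 77.4 TPM on KO D1 and 142, 161 and 138 TPM on KO D4 (0.79 ± 0.11, adjusted p = 0.000244). Ndufb10, an accessory complex I subunit of the intermembrane face, rose from 326, 393 and 260 TPM to 610, 822 and 633 TPM (1.08, adjusted p = 0.00215). The count was 20 without KO D4 replicate 2, 10 without KO D1 replicate 3, 26 without KO D1 replicate 1, and 0 with only the 6 libraries compared. With both KO D4 replicate 2 and KO D7 replicate 2 left out of the whole fit, 22 members passed, all 22 among the 45, and the nuclear median was 0.38. The difference between the genotypes in this step was tested for each gene and passed for 0 members and 0% of all genes (8 members and 3667 genes at an unadjusted p under 0.05). With library quality weights 8 members passed the adjusted test, but in each group compared these weights favoured 1 library.

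Between D4 and D7 in WT, mitochondrially encoded and nuclear subunits were both higher, while more genes overall fell than rose. Of the members, 24 were higher and 2 lower, against 3.04% and 9.31% of all genes, whose median was −0.24. The mitochondrial median was 1.03 and the nuclear median 0.44. The mitochondrial members that rose were mt-Nd1, mt-Nd4, mt-Nd5, mt-Nd6, mt-Cytb, mt-Atp6 and mt-Atp8. mt-Cytb, the haem-bearing core of complex III, had 3522, 5792 and 6501 TPM on D4 and 10490, 11263 and 11644 TPM on D7 (1.12 ± 0.24, adjusted p = 0.0108). Among nuclear members, Cox6c rose from 615, 766 and 521 TPM to 1105, 1231 and 1426 TPM (0.99, adjusted p = 0.00926), and Cox7b from 430, 433 and 197 TPM to 848, 731 and 648 TPM (1.15, adjusted p = 0.0265). Both are small subunits at the rim of complex IV. The 2 members that fell were Cox6a1 and Cox8a. Marker genes differed between these days as well. Leukocyte markers summed to 2762 to 5839 TPM on D4 and 1393 to 1910 TPM on D7 (0 of 8 passed, median −1.40), mature fibre markers to 44506 to 96311 and 119580 to 134190 TPM (1 of 12 higher), regenerating fibre markers to 1156 to 1790.5 and 160 to 478 TPM (2 of 6 lower), and slow or cardiac markers to 5200 to 8007 and 3651 to 4136 TPM (1 of 7 lower). Their part in the differences was not tested. The count of 26 was 47 after quantile normalization, 43 without the 50 most abundant genes and 66 with library quality weights. It was 2 without WT D4 replicate 1, 4 without WT D7 replicate 2 and 1 without WT D7 replicate 3, and 4 with only the 6 libraries compared.

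In KO, 0 members passed between D4 and D7 by limma, as did 0% of all genes, with 4 members and 1555 genes at an unadjusted p under 0.05. With library quality weights 38 members passed (34 higher, 4 lower), with KO D4 replicate 3 weighted 4.06, against 0.559 and 0.116 in its group. The 3 lowest unweighted p-values were those of Cox7a2l (−0.48), Cox8a (−0.80) and Cox6a1 (−0.85), with adjusted p-values of 0.366, 0.399 and 0.399. Without KO D4 and D7 replicates 2, 1 member passed. The difference between genotypes in this step passed for 0 members and 0% of genes (24 members and 445 genes at an unadjusted p under 0.05).

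Between D7 and D14 in WT, mt-Nd1 and mt-Nd2 rose and Cox6a1, Cox8a and Ndufa4l2 fell, against 0.923% of all genes rising and 30.9% falling. mt-Nd1 went from 7096, 7850 and 8646 TPM to 12710, 11591 and 15131 TPM (0.74, adjusted p = 0.0222). All 13 mitochondrial members had positive differences, with a median of 0.64. The nuclear median was −0.07, against −0.45 for all genes, and was +0.52 after median-of-ratios scaling, with 5 members higher and 1 lower. The count was 0 without WT D7 replicate 1 or WT D14 replicate 3, 2 without WT D7 replicate 2, 3 without WT D7 replicate 3 or WT D14 replicate 1, and 19 (11 higher, 8 lower) with only the 6 libraries compared. In KO, 0 members passed in this step by limma, against 0.56% of all genes. At an unadjusted p under 0.05 there were 13 members, 10 of them mitochondrial and higher, and 3035 genes, and mt-Nd1 had the lowest adjusted p (0.95, adjusted p = 0.0613). With library quality weights 19 members passed (15 higher, 4 lower). Without KO D4 and D7 replicates 2, 2 members passed. The difference between genotypes again passed for 0 members and 0% of genes (1 member and 486 genes at an unadjusted p under 0.05).

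From D1 to D14, subunits of all 5 complexes rose in both genotypes while the median over all genes fell. TPM adds up to a fixed total, so that median does not show a general loss of transcripts. The 50 most abundant genes of a library held 32.8% to 48.2% of TPM on WT D1 and 57.3% to 61.4% on WT D14. In WT, 59 members were higher and 3 lower, against 5.15% and 40.5% of all genes. In KO, 67 were higher and 2 lower, against 8.43% and 42.8%. The nuclear median was 0.56 in WT and 0.62 in KO, and the median of all genes −0.44 and −0.45. In WT the higher members were 22 of 37 nuclear members of complex I, 4 of 4 of complex II, 7 of 9 of complex III, 8 of 18 of complex IV and 11 of 17 of complex V. In KO they were 29, 4, 8, 8 and 14. Of the mitochondrial members, 7 of 13 rose in WT and 4 of 13 in KO, which does not show that the genotypes differed.

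Ndufs1 rose to 216, 161 and 189 TPM on WT D14 and to 189, 196 and 190 TPM on KO D14. Its log2 difference from D1 was 1.07 ± 0.17 in WT (adjusted p = 0.000104) and 0.92 ± 0.17 in KO (adjusted p = 0.000324). Ndufc2 had the lowest adjusted p of all members in both genotypes, with 149, 166 and 168 TPM on WT D14 against 93.7, 92.6 and 89.7 TPM on WT D1 (0.80, adjusted p = 3.94e-05), and 0.91 in KO (adjusted p = 2e-05). Sdha, the flavoprotein that oxidises succinate, rose by 0.75 in WT (adjusted p = 0.00296), from 261, 177 and 242 TPM to 458, 317 and 369 TPM. mt-Co1, which holds the oxygen-reducing centre of complex IV, went from 28689, 13878 and 17120 TPM to 45163, 34875 and 44584 TPM in WT (1.12, adjusted p = 0.0132). In KO it went from 26284, 30835 and 18654 TPM to 46743, 40122 and 41220 TPM (0.78, adjusted p = 0.0652).

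Leukocyte markers moved against the subunits over the same interval, with 8 of 8 lower in WT (median −3.04) and 8 of 8 lower in KO (median −3.65). Their summed TPM on D14 was 169 to 591 in WT and 289 to 390 in KO, against 938 to 4331 and 3357 to 4822 on D1. Of the 12 mature fibre markers, 2 rose in WT and 3 in KO, with summed TPM of 135870 to 143660 on WT D14 and 125730 to 137350 on KO D14. Slow or cardiac markers, genes of oxidative fibres among them, summed to 555 to 1795 TPM on WT D1, 5200 to 8007 on D4 and 2217 to 2856 on D14, and 2 of 7 rose from D1 to D14 in WT (Tnni1 and Tnnc1) and 0 of 7 in KO. White adipocyte markers summed to 1.67 to 35.8 TPM on WT D1 and 5.59 to 10.8 on WT D14, with 0 of 4 passing. In KO they summed to 4.02 to 44.2 and 38.6 to 160 TPM, and 4 of 4 rose (median 2.26). This does not show that the genotypes differed, as 0 genes passed between them on D14. Control muscle held 53 to 60 TPM in the other table. From control to WT D1, Adipoq, Cidec and Plin1 were lower (limma adjusted p from 0.0132 to 0.0171). The part of these lists in the rise of the subunits was not tested. The WT count of 62 was 38 without WT D1 replicate 2 and 55 without WT D1 replicate 3, and the KO count of 69 was 38 without KO D1 replicate 3.

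In WT from control to D1 and from D1 to D14, the members called against the direction of most others were, besides Atp5g2 of complex V, Cox6a1 and Cox8a of complex IV. That complex has 3 pairs of genes in which a heart and muscle isoform stands beside a widely expressed counterpart: Cox6a2 and Cox6a1, Cox7a1 and Cox7a2, and Cox8b and Cox8a. Promoter windows (250 bases before to 50 after the start, RefSeq on GRCm38.p6) were at hand for 68 of the 85 nuclear members, and 5 of the 6 isoform genes were among them. They are printed 5′ to 3′ on the gene's strand to show how the windows of widely expressed and muscle genes are built. Capitals mark matches on either strand to the letters of 5 motifs. Those of NRF1, a factor known to drive many respiratory genes, were GCGCANGCG. Those of GABP, an ETS factor also known as NRF2, were CCGGAAG. The factor SP1 was searched for with GGGCGG, as it binds many promoters rich in CG. The E-box bound by myogenic factors was taken as CAGCTG, and the TATA box that places some starts as TATAAA. Windows lie at chr5:115348909-115349208 (minus strand) for Cox6a1, chr9:79759804-79760103 (minus) for Cox7a2, chr19:7217567-7217866 (minus) for Cox8a, chr7:30183921-30184220 (plus) for Cox7a1 and chr7:140900397-140900696 (minus) for Cox8b.
Cox6a1: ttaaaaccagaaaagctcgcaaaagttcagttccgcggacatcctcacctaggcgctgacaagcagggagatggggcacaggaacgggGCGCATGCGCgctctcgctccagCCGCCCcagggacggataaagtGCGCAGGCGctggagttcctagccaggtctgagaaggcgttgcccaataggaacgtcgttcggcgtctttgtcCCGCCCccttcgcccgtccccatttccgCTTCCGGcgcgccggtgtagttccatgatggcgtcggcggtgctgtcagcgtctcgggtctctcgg
Cox7a2: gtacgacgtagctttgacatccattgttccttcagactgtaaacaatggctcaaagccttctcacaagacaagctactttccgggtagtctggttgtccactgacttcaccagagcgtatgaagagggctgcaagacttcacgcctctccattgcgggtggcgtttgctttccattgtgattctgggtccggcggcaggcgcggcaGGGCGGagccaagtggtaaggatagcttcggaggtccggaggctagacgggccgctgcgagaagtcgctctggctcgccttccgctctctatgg
Cox8a: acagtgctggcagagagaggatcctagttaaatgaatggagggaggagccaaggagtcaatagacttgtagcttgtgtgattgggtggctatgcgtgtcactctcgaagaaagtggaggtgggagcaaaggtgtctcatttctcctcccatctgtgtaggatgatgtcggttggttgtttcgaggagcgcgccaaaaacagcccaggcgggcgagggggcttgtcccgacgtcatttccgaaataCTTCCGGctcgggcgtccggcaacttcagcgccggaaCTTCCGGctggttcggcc
Cox7a1: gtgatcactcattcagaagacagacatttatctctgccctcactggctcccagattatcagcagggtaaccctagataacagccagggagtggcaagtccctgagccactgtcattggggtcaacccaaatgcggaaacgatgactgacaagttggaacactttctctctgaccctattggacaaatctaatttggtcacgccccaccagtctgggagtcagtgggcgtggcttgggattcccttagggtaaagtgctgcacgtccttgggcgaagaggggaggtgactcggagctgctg
Cox8b: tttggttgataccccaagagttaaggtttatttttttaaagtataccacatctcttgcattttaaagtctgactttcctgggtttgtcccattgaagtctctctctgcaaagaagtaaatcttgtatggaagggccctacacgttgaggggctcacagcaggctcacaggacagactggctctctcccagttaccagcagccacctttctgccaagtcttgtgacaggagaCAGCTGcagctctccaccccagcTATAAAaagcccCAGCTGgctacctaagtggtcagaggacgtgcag

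The windows of the 3 widely expressed genes held 32 (Cox6a1), 20 (Cox7a2) and 19 (Cox8a) CG dinucleotides, and those of the muscle genes 7 (Cox7a1) and 2 (Cox8b). The median was 19 over the 68 subunit windows and 7 over all 27025 promoter windows. Cox6a1 held 3 NRF1 matches, of which 2 overlap by 8 bases, 1 GABP match and 2 SP1 matches, and Cox8a held 2 GABP matches. Cox8b held 2 E-box matches and 1 TATA match, and Cox7a1 none of the motifs searched. Over the subunit windows, NRF1 letters were in 27.9% against 6.5% of all promoters, GABP in 23.5% against 9.1%, YY1 (AAGATGGCG) in 8.8% against 1.5%, ERR (TCAAGGTCA) in 2.9% against 0.4% and SP1 in 39.7% against 35.9%. Letters of the E-box were in 8.8% against 16.1%, of the TATA box in 10.3% against 14.2%, and of the MEF2 motif in 0% against 3.3%. These are matches of letters and no measure of binding. The letters of NRF1 and GABP themselves hold CG, and the windows compared were not matched for CG content. Its part in these shares was not tested.

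The 3 muscle isoforms fell from control to D1. From D1 to D14 in WT only Cox7a1 among them passed the test (1.29, adjusted p = 0.0306), while Cox8b had 0.75 (adjusted p = 0.168) and Cox6a2 0.49 (adjusted p = 0.304). Cox6a2 stood at 1518, 1012 and 1268 TPM on WT D14, against 1781, 1464 and 1720 TPM in control in the other table. In KO, Cox7a1 had 1.14 (adjusted p = 0.0475), Cox8b 1.06 (adjusted p = 0.049) and Cox6a2 0.73 (adjusted p = 0.112). Cox8b had 2177, 2289 and 2067 TPM in control. In the injured table it had 1567, 840 and 1466 TPM on WT D1, on D4 365, 924 and 1388, on D7 1459, 1707 and 1994 and on D14 2201, 1983 and 2113 TPM. In KO it had 1163, 1598 and 689 TPM on D1, 1093, 3235 and 985 on D4, 1590, 2139 and 1762 on D7, and 2236, 2081 and 2509 TPM on D14. Its lowest value was in WT D4 replicate 1 and its highest in KO D4 replicate 2, the libraries that stood apart. From control to D1 it fell by 0.80 on the log2 scale (adjusted p = 0.0299), Cox6a2 fell by 0.89 (adjusted p = 0.0163) and Cox7a1 fell by 1.02 (adjusted p = 0.0159). Cox7a1 rose by 1.51 ± 0.47 between WT D4 and D7 (adjusted p = 0.0418; 1.81 with adjusted p = 0.0543 after median-of-ratios scaling), with 151, 473 and 654 TPM on D4 and 962, 973 and 1170 TPM on D7. Cox8b is also known from brown fat. Of the other 3 markers of that tissue, Ucp1 and Elovl3 had a group mean under 1 TPM in every group, while Cidea was above that level and had a log2 difference of −0.16 (adjusted p = 0.709) between control and D1.

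Cox6a1 went on rising in WT to 874, 616 and 595 TPM on D4 (1.06 ± 0.32, adjusted p = 0.0233), then fell to 350, 266 and 271 TPM on D7 (−1.22, adjusted p = 0.0226) and to 131, 139 and 102 TPM on D14 (−1.25, adjusted p = 0.0116). The D4 values lay above all other WT groups, and the D14 values lay close to the 91.1 to 105 TPM of control in the other table. Cox8a followed with 751, 520 and 475 TPM on D4, 309, 242 and 235 TPM on D7 and 139, 131 and 98.6 TPM on D14. Its differences were 1.08 (adjusted p = 0.0147), −1.13 (adjusted p = 0.0237) and −1.09 (adjusted p = 0.0154). Both genes kept these directions under every scaling tried. In the steps of WT, single libraries decided the calls: the rise to D4 of Cox6a1 failed without WT D1 replicate 1 (1.08, adjusted p = 0.0523), and that of both genes without WT D1 replicate 3 (0.69 and 0.79, adjusted p = 0.159 and 0.103) and without WT D4 replicate 1 (0.89 and 0.88, adjusted p = 0.0993 and 0.0762). The fall to D7 of both failed without WT D4 replicate 1, WT D7 replicate 2 or WT D7 replicate 3 (adjusted p from 0.0919 to 0.134), and the fall to D14 without WT D7 replicate 1 or WT D14 replicate 3 (adjusted p from 0.0651 to 0.086).

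In KO, Cox6a1 had 475, 347 and 431 TPM on D1, 561, 242 and 435 on D4, 263, 159 and 243 on D7 and 132, 168 and 184 TPM on D14. From D1 to D14 it fell by 1.41 ± 0.32 in WT (adjusted p = 0.00164) and fell by 1.37 ± 0.32 in KO (adjusted p = 0.00171). Cox8a fell by 1.14 in WT (adjusted p = 0.0048) and fell by 1.03 in KO (adjusted p = 0.00811). Cox7a2 did not follow that course: it rose in WT between D1 and D4 by 0.56 (adjusted p = 0.0113; 0.28 with adjusted p = 0.378 after median-of-ratios scaling) and stood at 303, 354 and 355 TPM on WT D14, above its 182 to 219 TPM on D1 (0.71, adjusted p = 0.000864).

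**Figure D3:**
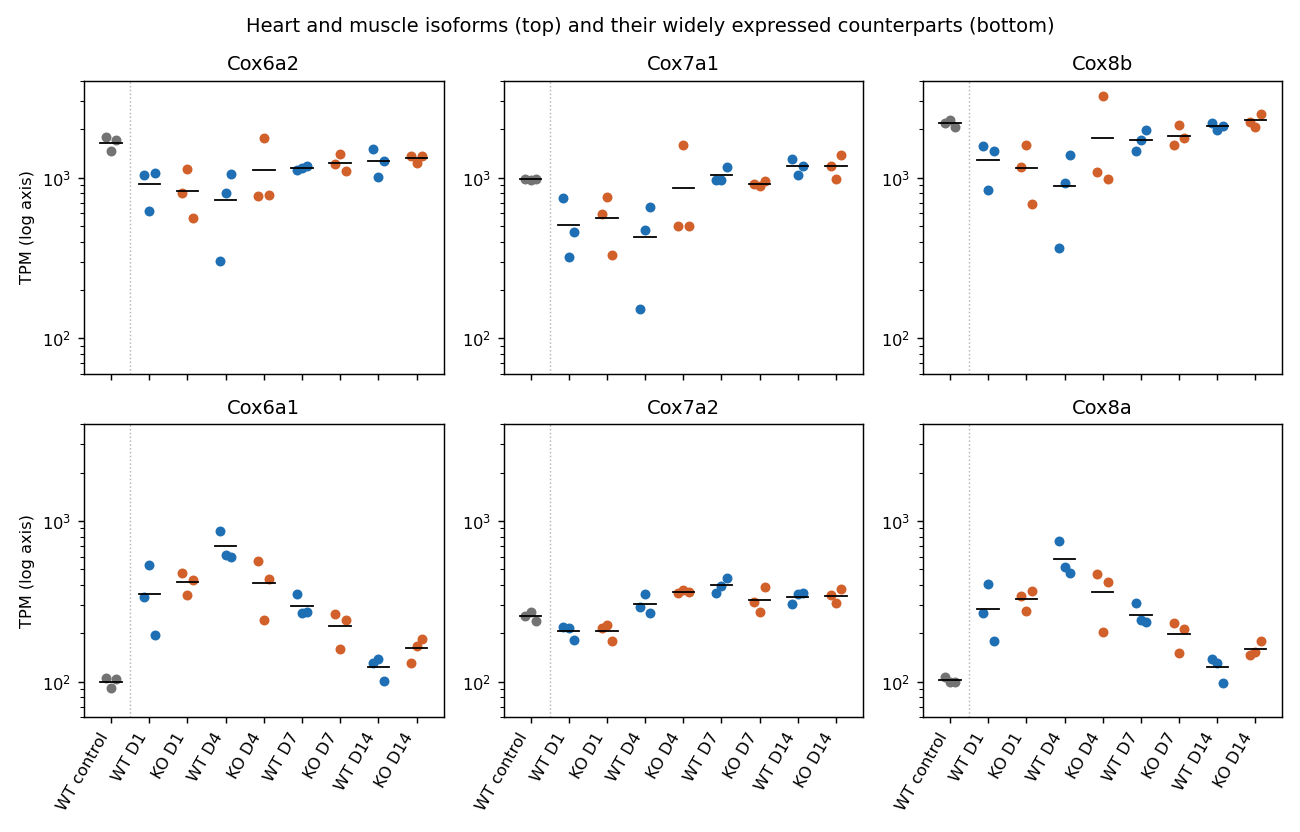
TPM on a log axis of the 3 heart and muscle isoforms of complex IV (top) and their widely expressed counterparts (bottom) in each library; bars are group means of 3, colours mark control (grey), WT (blue) and KO (orange), and the dotted line parts the 2 tables. In WT, Cox6a1 and Cox8a have their highest mean on D4, where Cox6a2, Cox7a1 and Cox8b have their lowest.

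The ratio of muscle to widely expressed isoform, as the mean of the ratios in each library, was 16.5 in control for Cox6a2 over Cox6a1. In WT the ratio was 3.26, 1.15, 3.95 and 10.5 at the successive times, and in KO 2.08, 3.50, 6.01 and 8.43. For Cox8b over Cox8a it was 21.4 in control, 5.38, 1.73, 6.76 and 17.4 in WT and 3.69, 6.86, 9.74 and 14.3 in KO. For Cox7a1 over Cox7a2 it was 3.83 in control, 2.47, 1.43, 2.61 and 3.53 in WT and 2.66, 2.36, 2.88 and 3.43 in KO. The WT D4 ratios of Cox6a2 over Cox6a1 were 0.35 in replicate 1 and 1.31 and 1.78 in the others, and those of Cox8b over Cox8a 0.49, 1.78 and 2.92. The KO D4 ratios rest on replicate 2, in which Cox8b stood at 15.9 times Cox8a, against 2.33 and 2.35 times in the others.

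Ratios were tested on the log2 scale by exact two-sided permutation (between days within genotype, between genotypes within day), with Benjamini-Hochberg adjustment over 25 tests (5 pairs and 5 comparisons), and none passed 0.05. Between D7 and D14 Cox6a2 over Cox6a1 was higher by 0.96 log2 units (exact permutation p = 0.015, adjusted p = 0.075), Cox8b over Cox8a by 1.00 (exact permutation p = 0.015, adjusted p = 0.075) and Cox7a1 over Cox7a2 by 0.34 (exact permutation p = 0.01, adjusted p = 0.075). With 3 against 3, the difference of −2.60 for Cox6a2 over Cox6a1 between control and D1 had the smallest exact permutation p the design allows, 0.1. With KO D4 and D7 replicates 2 left out, these differences were 1.12, 1.15 and 0.39, each with an exact permutation adjusted p of 0.0312. Between D4 and D7 the differences were 1.59, 1.66 and 0.81 (exact permutation adjusted p = 0.075, 0.125 and 0.192), and 1.96, 2.12 and 1.08 without KO D4 replicate 2 (exact permutation adjusted p = 0.0312 each). With KO D4 and D7 replicates 2 both left out they were 1.8, 1.97 and 1.03, and none passed (exact permutation adjusted p = 0.0595 each). Without WT D4 replicate 1 they were 1.23, 1.29 and 0.51 (exact permutation adjusted p = 0.125, 0.208 and 0.288).

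The remaining pairs of complex IV joined a widely expressed gene to a counterpart linked to low oxygen. Ndufa4l2 over Ndufa4 differed between D7 and D14 by −0.78 (exact permutation p = 0.005, the smallest the design allows, adjusted p = 0.075). Ndufa4l2 itself had 34.1, 38.6 and 46.0 TPM on WT D7 and 29.8, 28.6 and 21.5 TPM on WT D14 (−0.56, limma adjusted p = 0.046), but +0.02 after median-of-ratios scaling. Cox4i2 had 3.66 to 5.2 TPM in control and 4 to 12.8 TPM in injured muscle, far under Cox4i1, whose mean of 1729 TPM was the highest of the nuclear complex IV members.

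The c subunit of the ATP synthase rotor is made by 3 genes that give the same mature protein. Atp5g1 had 1393, 1242 and 1376 TPM in control and 1102, 653 and 810.5 TPM on WT D1 (−0.68, adjusted p = 0.031), and Atp5g3 fell likewise (−0.62, adjusted p = 0.0336). Atp5g2 was the member of complex V with the lowest level, with a mean of 12.2 TPM in control and 24.3 TPM on WT D1 (0.93 ± 0.19, adjusted p = 0.00488). A processed pseudogene on chromosome 7, Gm10175 (chr7:23946646-23947290, minus strand), is nearly identical to Atp5g2 and was listed at 633 TPM in both groups. When the TPM of both was added, the difference was 0.03 (adjusted p = 0.887), and from WT D1 to D14 it was −0.07 (adjusted p = 0.605) in place of −0.57 (adjusted p = 0.0286). The change of Atp5g2 therefore depends on how reads were divided between gene and copy, which is not given in the sources used here.

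Near-identical copies were searched for with blastn among annotated transcripts (at least 95% identity over at least 50% of the member). Of 96 members searched, 20 had at least 1 copy, and in 7 the copies reached 5% of the member's own mean TPM. They were Atp5g2, Atp5l and 5 mitochondrial genes. Atp5l had a mean of 865 TPM over the injured libraries, and Gm10221, identical over 56.8% of it, had 764 TPM. Levels and changes of Atp5l from its own entry are therefore uncertain as well. The copies of the 5 mitochondrial genes lie side by side within chr1:24612407-24615565, on the minus strand, as unprocessed pseudogenes: Gm10222 (of mt-Nd4l), Gm28438 (mt-Nd3), Gm28437 (mt-Co3), Gm10925 (mt-Atp6) and Gm28661 (mt-Co2). All coordinates are of GRCm38 (mm10). In the TPM tables these copies were listed far above the genes they match. mt-Co2 had a mean of 343 TPM over the injured libraries and Gm28661 20978 TPM; mt-Co3 had 734 TPM and Gm28437 25412 TPM. mt-Atp6 had 826 TPM and Gm10925 11498 TPM. mt-Co2 held 1.04% to 1.90% of the sum of gene and copy in the group means. The 5 copies together held 9.23% of all TPM in control, and 6.26%, 4.02%, 8.26% and 12.6% in WT over the 4 days.

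Levels and changes of these 5 genes are therefore uncertain when read from their own entries, since reads from a gene and its copy may have been divided between the entries. With the copies added, the 13 genes held 22.5% ± 1.88 of TPM in control, 14.4% ± 4.27, 9.37% ± 2.62, 18.7% ± 2.09 and 28.8% ± 2.48 in WT, and 17.7% ± 1.98, 14.5% ± 4.97, 17.0% ± 3.38 and 27.8% ± 2.18 in KO, with the same lowest day as without them in each genotype. mt-Co3, the member with the largest fall on D1 (−2.07), had −0.93 with its copy (adjusted p = 0.046). mt-Nd3, with 0.64 alone, had −0.16 with its copy. The change of mt-Atp6 in WT was −0.87 between D1 and D4 (adjusted p = 0.0237) and 1.26 between D4 and D7 (adjusted p = 0.00884) with its copy.

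With copies added, 4 of the 5 genes also rose in WT from D1 to D14, which alone they had not. mt-Atp6 had 1.04 (adjusted p = 0.00334), mt-Co2 0.96 (adjusted p = 0.00358), mt-Co3 1.24 (adjusted p = 0.00337) and mt-Nd4l 0.99 (adjusted p = 0.00765). In KO the first 3 rose as well, by 0.65 (adjusted p = 0.0425), 0.63 (adjusted p = 0.0358) and 0.97 (adjusted p = 0.0139). mt-Co1 and mt-Cytb, which had no copy at this level, were described above from their own entries.

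**Figure D4:**
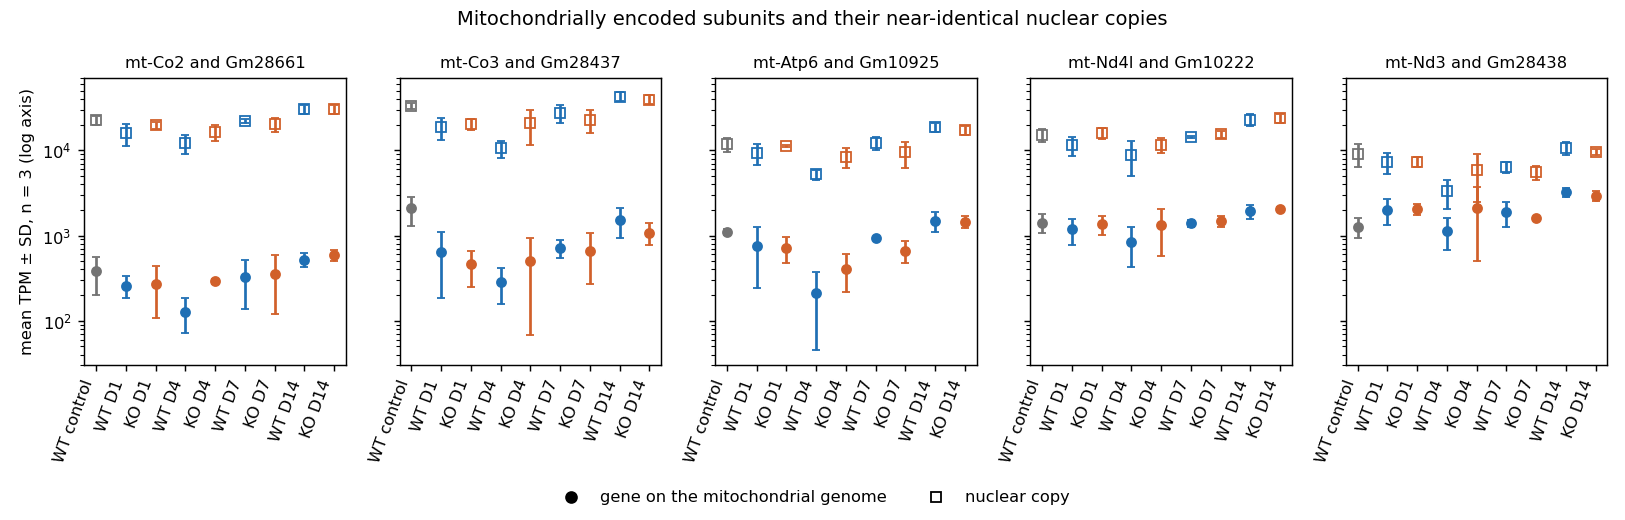
Mean TPM ± SD (n = 3, log axis) of 5 mitochondrially encoded subunits (filled circles) and of their near-identical copies on chromosome 1 (open squares) in each group. The copies lie above the genes in every group.

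Other mitochondrial entries overlap on the genome: mt-Atp8 with mt-Atp6, mt-Nd4l with mt-Nd4, and, on opposite strands, mt-Nd5 with mt-Nd6. Whether counting used strand is not given in the sources used here, so the division between these genes is uncertain. mt-Atp8, a gene of 204 bases, alone held 26.2% to 38.3% of the TPM of the 13 genes in a library. On D1 after injury 5 mitochondrial members were below control: mt-Nd1 (−0.72, adjusted p = 0.0463), mt-Nd2 (−0.80, adjusted p = 0.042), mt-Nd5 (−0.80, adjusted p = 0.0242), mt-Nd6 (−1.06, adjusted p = 0.01) and mt-Co3. After quantile normalization mt-Nd1 had −0.12 (adjusted p = 0.66).

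The KO was compared with WT on each day. By limma, 0 members passed on any day. With library quality weights, 7 members passed on D1 (0 higher and 7 lower in KO), 2 on D4, and 0 on D7, on D14 and for the average, and 4 for any difference between the days. On D1 and D4 these weights favoured 1 library of each group (4.92 for WT D1 replicate 1, against 0.314 and 0.282). The weighted calls on those days thus rest largely on single libraries, and the share of all genes called with the weights is not given. Of all genes, 0.00636% passed on D1 and 0% at each later time. Unadjusted p-values under 0.05 were held by 1 member and 845 genes on D1, by 27 and 3568 on D4, by 3 and 481 on D7, and by 0 and 324 on D14. For the average over the days, 0 members passed against 0.00636% of genes (0 members and 556 genes unadjusted). For any difference between the days, 0 members and 0% of genes passed (4 members and 1203 genes unadjusted).

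Most of the unadjusted p-values under 0.05 were those of D4. Of the 98 members 92 had a positive KO minus WT difference, with a median of 0.29 for nuclear and 0.61 for mitochondrial members, while all genes had a median of −0.28. An unadjusted limma p under 0.05 was held by 27 of 98 members and by 3568 of all 15718 genes, so the members' share was near the background. Of the 27, 24 were higher and 3 lower in KO, and the lowest adjusted p was 0.212, shared by Ndufb1, Ndufv2 and Atp5j among others. Cox6a1 had −0.81 (95% interval −1.47 to −0.14) and Cox8a −0.74 (−1.36 to −0.11). Cox7a1 had 1.03 (0.05 to 2.00) and Cox8b 0.96 (0.05 to 1.88), in each case without adjustment of the interval and with a spread pooled over all days. Leukocyte markers had a median KO minus WT difference of −1.16 on D4, with summed TPM of 463 to 3860 and 2762 to 5839, and mature fibre markers had a median of 0.77, without any marker passing the test. Without KO D4 and D7 replicates 2, the median was 0.14 for nuclear members, 0.33 for mitochondrial members and −0.11 for all genes, and 5 members had an unadjusted p under 0.05. Cox6a1 then had −0.47, Cox8a −0.36, Cox7a1 0.47 and Cox8b 0.42 (adjusted p = 0.866 each). Without WT D4 replicate 1 instead, the medians were 0.12, 0.31 and −0.17, with 70 of 85 nuclear and 12 of 13 mitochondrial differences positive, and 0 members had an unadjusted p under 0.05. Cox6a1 had −0.63, Cox8a −0.54, Cox7a1 0.40 and Cox8b 0.42 (adjusted p from 0.653 to 0.722).

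What sizes of difference the data allow is given by the 95% intervals, which for nuclear members had a median width of 0.38 log2 units to either side. On D14 the interval lay within 1 log2 unit of 0 for 82 of 85 nuclear members and 10 of 13 mitochondrial ones. On D1 it did for 82 and 7, on D4 for 75 and 0, and on D7 for 80 and 10. For the average over the days it did for all 85 and all 13. On D14, Ndufs1 had 0.03 (−0.33 to 0.39), Sdhb 0.03 (−0.56 to 0.61), Uqcrh −0.06 (−0.38 to 0.26), mt-Co1 0.05 (−0.68 to 0.77) and Atp5b, the catalytic subunit of the ATP synthase, −0.02 (−0.42 to 0.39).

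Genes that build, feed or control the chain were taken from lists. Of all genes, 55.4% rose and 5.64% fell from control to WT D1. From D1 to D14, 5.15% rose and 40.5% fell in WT, and 8.43% rose and 42.8% fell in KO. Not all lists followed the subunits. The citrate cycle did: from control to WT D1, 9 of 14 genes fell and 0 rose (median −0.65), and from WT D1 to D14, 11 of 14 rose and 0 fell (median 0.67), with 9 of 14 in KO (median 0.70). Among them Cs, the citrate synthase, fell by 0.80 on D1 (adjusted p = 0.0107), and Idh3a, a subunit of isocitrate dehydrogenase, rose by 1.00 to D14 (adjusted p = 0.000126). Of 14 electron carriers and their makers, 5 fell and 0 rose on D1 (median −0.34), and 7 rose and 1 fell to D14 in WT, and 9 and 1 in KO. Coq9, needed to make coenzyme Q, had −0.94 (adjusted p = 0.0113) and then 1.00 (adjusted p = 0.0133). Cycs, the cytochrome c that carries electrons from complex III to IV, rose by 0.80 between WT D4 and D7 (adjusted p = 0.00709).

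Assembly factors did not move as a block. Of all genes, 55.4% rose and 5.64% fell on D1, and 5.15% rose and 40.5% fell from WT D1 to D14. Of 15 for complex I, 3 rose and 2 fell on D1 (median 0.14), and 1 rose and 1 fell from WT D1 to D14. Ndufaf1, a factor that joins early intermediates of complex I, was among those that fell (−0.92, adjusted p = 0.00485) and then rose (1.05, adjusted p = 0.000215), while Ndufaf8 had 0.82 and −0.55. Of 18 for complex IV, 2 rose and 0 fell on D1, and 1 rose and 5 fell to D14 in WT (median −0.12). Cox18, which helps insert Cox2 into the membrane, rose by 1.16 (adjusted p = 0.00429) and then fell by 0.99 (adjusted p = 0.00147). Of 10 for complexes II and III, 0 rose and 1 fell on D1 (Lyrm7, −1.78, adjusted p = 0.00204), and 2 rose to D14. Of 3 for complex V, 0 passed on D1 by limma, and 1 rose and 1 fell to D14. In KO from D1 to D14 the counts higher and lower were 3 and 1 for complex I, 3 and 0 for complexes II and III, 2 and 1 for complex IV and 2 and 1 for complex V.

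Of the genes that copy and transcribe mitochondrial DNA or process its transcripts, 4 of 11 tested rose and 0 fell on D1, beside 55.4% of all genes that rose, and from WT D1 to D14 1 of 12 rose and 3 fell, the same numbers as in KO. Elac2, which trims mitochondrial transcripts, rose by 0.88 and then fell by 1.07 (adjusted p = 9.48e-06). Of 12 regulators of mitochondrial biogenesis, 4 rose and 4 fell on D1. Perm1, a muscle partner of PGC-1 factors, fell by 2.50 (adjusted p = 0.00192), Ppara, a regulator of fat oxidation, fell by 1.86 (adjusted p = 0.00454) and Ppargc1a (PGC-1 alpha) fell by 1.35 (adjusted p = 0.00966). Hif1a, the oxygen-sensitive factor, rose by 2.44 (adjusted p = 0.00315). Nrf1 and Gabpa, whose motifs were searched above, were also higher on D1 (0.88, adjusted p = 0.0133, and 1.11, adjusted p = 0.00381) and were named after their values were seen. From WT D1 to D14, 4 regulators rose and 4 fell, among them Perm1 at 2.28 (adjusted p = 0.00598) and Hif1a at −1.68 (adjusted p = 0.0172), and in KO 2 rose and 4 fell. Nrf1 had −0.92 in both genotypes (adjusted p = 0.00196 in WT and 0.00169 in KO), Gabpa −0.30 in WT (adjusted p = 0.376), and Ppargc1a 0.69 in WT (adjusted p = 0.164) and −0.37 in KO (adjusted p = 0.457).

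ATP export showed a pair of a muscle gene and a more widely expressed one. From control to D1 and from D1 to D14, the widely expressed gene had the directions of Cox6a1 and Cox8a, and not those of Cox7a2. Slc25a4, the ADP/ATP carrier of muscle and heart, fell by 0.91 on D1 (adjusted p = 0.0145) and rose to D14 by 1.17 in WT (adjusted p = 0.00141) and 1.32 in KO (adjusted p = 0.00046). Slc25a5, the carrier of most other cells, rose by 1.84 on D1 (adjusted p = 0.00397) and had D14 minus D1 differences of −1.71 in WT (adjusted p = 0.00302) and −1.84 in KO (adjusted p = 0.0015). Ckmt2, the mitochondrial creatine kinase of muscle, fell by 1.57 (adjusted p = 0.0176) and rose by 1.76 in WT (adjusted p = 0.0302). Over the 7 tested genes of ATP export and the outer membrane, 1 rose and 4 fell on D1, 4 rose and 1 fell from WT D1 to D14, and 3 rose and 1 fell in KO. The shares of all genes that rose and fell were 55.4% and 5.64% on D1. From D1 to D14 they were 5.15% and 40.5% in WT, and 8.43% and 42.8% in KO.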

How the data were processed

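Bulk RNA-seq libraries of mouse muscle were made by the submitters with a SMARTER mRNA kit and sequenced paired-end. The labels name mRNA enrichment or rRNA depletion without saying which was done, which can change the mitochondrial share of TPM. The authors deposited TPM, which scale reads by transcript length and library total. The submitters' processing notes name mm10, and the aligner, counter, annotation and use of strand are not given in the sources used here. Depth is therefore unknown, and no interval from counting was given. The 2 tables (6 and 24 libraries) were analysed separately, and no per-sample column was left unused.

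Groups were taken from the labels. Genes with at least 1 TPM in at least 3 libraries of a table were tested with limma 3.58.1 (R 4.3.3) on log2(TPM + 1), with group means, a trended prior variance and Benjamini-Hochberg adjustment over all genes tested, at 0.05. A fold change on this scale understates the change of low genes. All 24 injured libraries shared 1 estimate of spread, and intervals are pointwise at 95%. Isoform ratios were tested by exact two-sided permutation (scipy 1.17.1). Near copies were searched with blastn 2.17.0+ in GENCODE transcripts of GRCm38, and promoter windows came from RefSeq. The limma step was tested on simulated data.

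Named genes were the 13 mitochondrial members, complex II, the isoform pairs and c-ring genes, the highest and lowest nuclear member per complex, the 3 largest called changes per direction and comparison (or the 3 lowest p where none was called), members called against their complex, and the 3 largest called genes of each list. The members and lists were chosen with earlier results of these data known. Alternatives covered the pseudocount, the TPM filter, scaling, the libraries fitted, quality weights, a replicate block and leaving out libraries. Leaving out KO D4 and D7 replicates 2 together, and adding copies to their genes, were chosen after seeing the data.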

Additional observations from a re-analysis of the deposited data

How the results depend on the processing

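Counts of called subunits depended on scaling. The share of all genes called under the alternatives is not given, so these counts are not set against a background. After median-of-ratios scaling they were 91 for WT D1 against control (54 in the report), 5 for WT D4 against D1 (17), 29 for KO D4 against D1 (45), and for WT D14 against D7 6, with 5 higher and 1 lower. Quantile normalization gave 11 for WT D4 against D1, 47 for WT D7 against D4 (26) and 1 for WT D14 against D7 (5). Without the 50 most abundant genes there were 83 for WT D1 against control, 8 for WT D4 against D1 and 43 for WT D7 against D4. Without a TPM filter there were 28 for WT D1 against control and 2 for WT D14 against D7. With only the groups compared in the fit, which leaves fewer libraries, there were 1, 4 and 19 for the WT steps and 0 for KO D4 against D1. Library quality weights gave 53, 66 and 22 for the WT steps, 38 and 19 for KO D7 against D4 and D14 against D7, 7 and 2 for KO against WT on D1 and D4, 4 for the difference between days and 8 for the difference in the step from D1 to D4. These weights ran from 0.116 (KO D4 replicate 2) to 4.92 (WT D1 replicate 1), and the share of all genes called with them is not given. Without KO D4 and D7 replicates 2 the KO steps gave 22, 1 and 2, and the isoform ratios between D7 and D14 differed by 1.12, 0.387, 1.15 and −0.778. Why these values differed between settings was not tested.

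The direction reversed for Ndufa4l2 in WT D14 against D7 (0.017 after median-of-ratios scaling), Atp5g2 in WT D14 against D1 (0.022 after that scaling, 0.091 after quantile normalization), mt-Cytb in KO D14 against D1 (−0.038 after quantile normalization) and Cox6a2 in KO against WT on D4 (−0.005 with quality weights). Of 1411 values of named genes under alternatives, 1137 kept direction and call, and 269 lost the call.

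Leaving out 1 library at a time gave 20 to 58 called subunits for WT D1 against control, 9 to 24, 1 to 30 and 0 to 4 for the WT steps, 38 to 69 for WT D14 against D1, 10 to 51 for KO D4 against D1, 0 to 3 for KO D7 against D4, 38 to 78 for KO D14 against D1 and 0 for each comparison of genotypes. Without 1 library the isoform differences between D4 and D7 ranged from 1.234 to 1.958, 0.508 to 1.079 and 1.293 to 2.124, and those between D7 and D14 from 0.876 to 1.116, 0.262 to 0.402, 0.882 to 1.154 and −0.865 to −0.71.

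Pairing by replicate number was looked for in the correlation of the libraries' deviations from group means. With 3 libraries in each group and no chance level computed, the values below cannot decide whether libraries were paired. Between control and WT D1 the 3 pairs had r of 0.06, 0.04 and 0.002. In the injured table, of 84 same-numbered pairs 24 correlated above 0.1, and 6 of 24 libraries correlated best with their own number. With a replicate block 45, 17, 24, 4 and 60 subunits were called in the WT comparisons in the order of the report, 42 in KO D4 against D1 and 62 in KO D14 against D1.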
